A study of Homo sapiens with 18 samples.

Results

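The HOX genes of clusters A, B, C and D were followed in human pluripotent stem cells with and without PCGF6. Members were the rows of the gene count table whose symbol is HOX, a cluster letter and a paralog number. Of the 57133 rows in the table, 38 members are reported here, with 10 in cluster A, 10 in cluster B, 9 in cluster C and 9 in cluster D. Transcripts were counted by RNA sequencing in 6 libraries of PGP1, an established human induced pluripotent stem cell line that was grown in mTeSR1 medium on Matrigel. Unedited cells (WT) gave 2 libraries. A PCGF6 knockout clone with a deletion in the first exon of the gene on both alleles (clone 1) gave 2, and another clone with a different deletion in that exon (clone 2) gave 2. Each clone is a single line, so what the deletion does and what is peculiar to a clone can be separated only as far as the clones share it. No label says that the libraries of a group came from separate cultures, so the p-values measure the spread between these libraries, which may be technical.

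HOX genes encode homeodomain transcription factors that give cells their position along the head-to-tail axis. They lie in 4 clusters that arose by duplication, and genes at the same place in each cluster share a paralog number. Low numbers lie at the 3' end of a cluster and are switched on early and towards the head, and high numbers lie at the 5' end and are switched on later and towards the tail. Pluripotent cells keep the clusters silent, and Polycomb complexes are the best known repressors of them. PCGF6 is a subunit of PRC1.6, a Polycomb complex that reaches DNA with MAX, which binds the E-box, and with E2F6. Genes are grouped below into anterior (paralog numbers 1 to 3), central (4 to 8) and posterior (9 to 13).

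The deposited counts summed to between 15877396 and 18918609 per library. PCGF6 itself was counted 268 and 300 times in the WT libraries, 99 and 103 times in those of clone 1, and 187 and 159 times in those of clone 2. They were lower in each knockout library than in both WT libraries but not at 0, and counts over a whole gene do not say how many came from the deleted exon. PCGF6 was itself called higher in clone 2 than in clone 1, with a log2 fold change of 0.90 ± 0.15 (SE, edgeR, adjusted p = 5.44e-05). Defining pluripotency genes were read in all libraries, with POU5F1 between 22722 and 31072 counts and NANOG between 1941 and 3433. Of 12 tested pluripotency markers, 8 were not called between knockout and WT, and SOX2, DNMT3B, PRDM14 and ZFP42 were lower. The share called lower was 8.7% over all genes tested.

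Promoter sequences are shown first for HOXB1, the member that was called lower in clone 2 than in clone 1, and for 4 posterior genes. RefSeq promoter windows (GRCh38.p14) matched 20 of the 38 members with 26 distinct windows, and the 250 bases before each start were used. The motifs searched on both strands were CACGTG, the E-box bound by MAX and MYC, and GCGGGAA, the E2F6 motif, and capitals mark them. The 4 posterior genes printed are those whose window held CACGTG. The posterior windows of HOXA10, HOXA11, HOXA13 and HOXD12 held neither motif and are not printed, and HOXD13 was not called between the clones. The printed set therefore cannot show whether the motifs go with the clone difference. Sequences run 5' to 3' on the strand of the gene.
HOXB1 (chr17:48531012-48531261, minus strand): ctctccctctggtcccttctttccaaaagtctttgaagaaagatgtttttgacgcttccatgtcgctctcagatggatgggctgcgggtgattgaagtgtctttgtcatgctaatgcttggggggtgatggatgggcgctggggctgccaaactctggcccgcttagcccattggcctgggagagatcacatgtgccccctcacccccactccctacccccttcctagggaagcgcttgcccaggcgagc
HOXA9 (chr7:27165538-27165787, minus strand): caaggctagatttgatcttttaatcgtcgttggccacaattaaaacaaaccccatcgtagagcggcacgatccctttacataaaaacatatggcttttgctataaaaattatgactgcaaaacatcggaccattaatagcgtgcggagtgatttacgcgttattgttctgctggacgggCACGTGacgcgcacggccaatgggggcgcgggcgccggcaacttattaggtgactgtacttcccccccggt
HOXD10 (chr2:176116528-176116777, plus strand): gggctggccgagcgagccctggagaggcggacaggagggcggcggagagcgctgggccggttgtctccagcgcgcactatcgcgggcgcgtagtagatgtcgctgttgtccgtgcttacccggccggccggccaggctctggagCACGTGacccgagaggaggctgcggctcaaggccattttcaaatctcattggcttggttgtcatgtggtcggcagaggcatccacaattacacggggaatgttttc
HOXD11 (chr2:176107030-176107279, plus strand): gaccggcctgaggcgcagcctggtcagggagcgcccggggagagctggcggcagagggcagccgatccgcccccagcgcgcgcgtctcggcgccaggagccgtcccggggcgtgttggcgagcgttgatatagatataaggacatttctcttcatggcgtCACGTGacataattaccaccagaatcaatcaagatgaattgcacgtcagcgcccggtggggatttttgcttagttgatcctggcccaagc
HOXD13 (chr2:176092471-176092720, plus strand): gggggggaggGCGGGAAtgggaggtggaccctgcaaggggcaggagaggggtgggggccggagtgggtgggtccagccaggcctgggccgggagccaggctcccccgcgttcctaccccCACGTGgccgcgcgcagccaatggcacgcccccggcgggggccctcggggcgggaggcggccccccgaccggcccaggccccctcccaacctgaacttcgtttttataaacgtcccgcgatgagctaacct

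CACGTG was present in 8 of the 26 member windows (30.8%), against 6.32% of the 34943 distinct windows of all genes. The windows with a match belonged to HOXA3, HOXA4, HOXA9, HOXD1, HOXD3, HOXD10, HOXD11 and HOXD13. GCGGGAA was present in 3 member windows (11.5%), those of HOXD3, HOXD8 and HOXD13, against 5.51% of all windows. HOXD3 and HOXD13 held both motifs, and the window of HOXB1 held neither. The member windows had a median of 58.8% C and G, close to the 58.0% of all windows, while the ratio of observed to expected CpG was 0.886 at the median against 0.556. HOXB1 stood low on that ratio at 0.343 and HOXA9 high at 1.34. By cluster, CACGTG was in 3 of 16 windows of A and 5 of 8 of D, and clusters B and C had 1 window each, without a match. Since 7 of the windows of A are alternative starts of HOXA3, the share describes clusters A and D and not all 4. These matches describe letters in a window and not binding, and windows of a cluster share their origin.

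In WT cells the clusters were close to silent. The 38 members together held 14 counts in WT library 1 and 6 in WT library 2, with at least 1 count on 6 and 4 of them. HOXB1 had 8 and 3 of these counts, and no other member had more than 2 in a library. A count of 0 in these libraries allows up to 0.184 and 0.180 CPM, the count scaled to a library size normalised with edgeR's TMM method. Together the 38 genes held 3733 and 3507 counts in clone 1 and 5485 and 4437 in clone 2. In each knockout library at least 36 members had a count and at least 31 had 10 or more.

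The question of the main comparison was which HOX genes differed between PCGF6-KO and WT cells. A gene was called when edgeR's quasi-likelihood test gave an adjusted p under 0.05 over all genes tested and an absolute log2 fold change over 0.6. Of the 38 members, 32 passed the filter on low counts and all 32 were called higher in PCGF6-KO, 9 of cluster A, 10 of B, 6 of C and 7 of D. Among all 17672 genes tested, 14.9% were called higher and 8.7% lower, and the median log2 fold change was 0.00. The 32 could pass the filter only through the knockout libraries in which they were high, so their count describes the members rather than supporting anything further. Each clone by itself also had 32 members called higher against the same WT libraries, where 16.0% of all genes were called higher in clone 1 and 16.9% in clone 2. In bulk RNA, expression in few cells and low expression in many cannot be told apart.

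Because most WT values are 0, folds are given as bounds against 3 counts in each WT library, or, for 1 to 3 WT counts in all, as a ratio with its exact 95% counting interval. The bounds and intervals cover counting error only. The median of the 32 log2 folds with such genes at their bound was 5.02. By class it was 5.49 for anterior, 5.28 for central and 4.96 for posterior genes. By cluster it was 4.80 for A, 5.92 for B, 5.93 for C and 4.13 for D. These medians are partly set by depth, since a bound can be no larger than a gene's knockout counts allow.

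**Figure D1:**
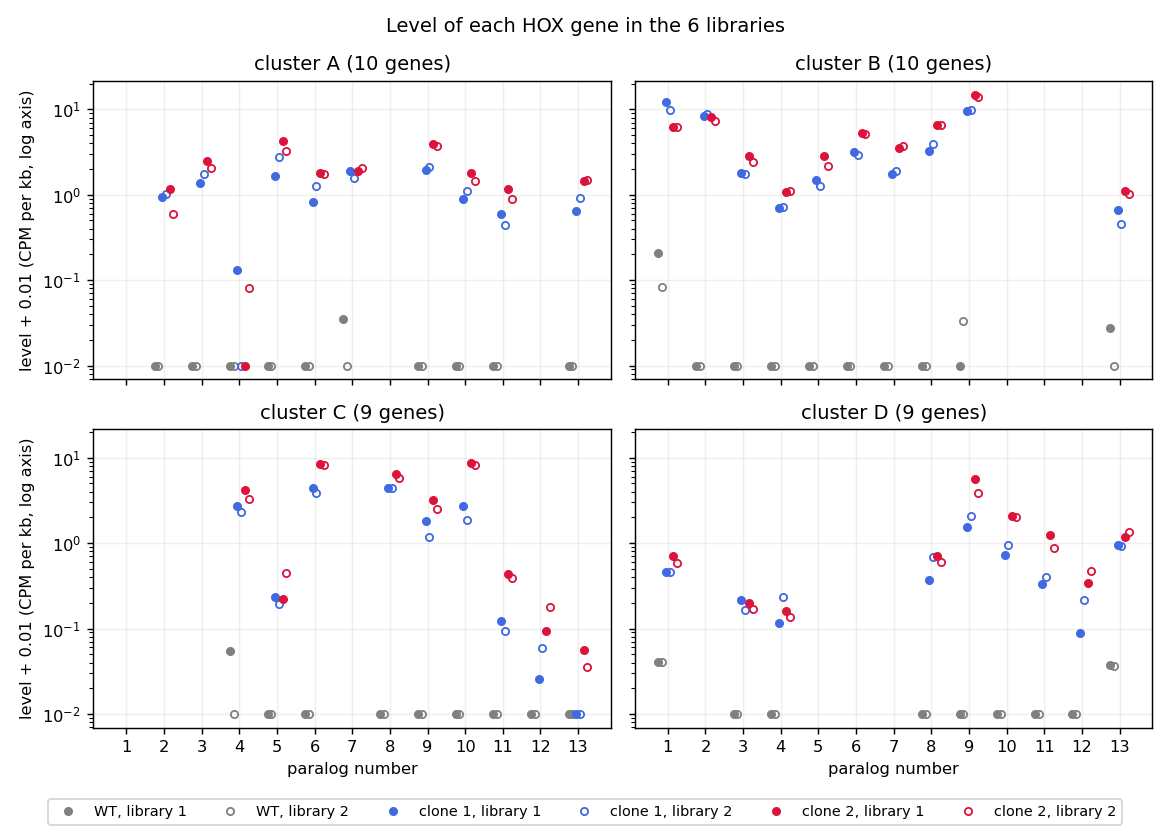
Level of each of the 38 HOX genes in the 6 libraries, one panel per cluster, with the paralog number on the horizontal axis and CPM per kilobase of deposited gene length plus 0.01 on a logarithmic vertical axis. Each point is 1 library, grey for WT, blue for clone 1 and red for clone 2, with open points for library 2 of each group. WT points sit at or near the bottom line, which is a count of 0, and HOXB9 has the highest mean of the genes shown at 12.0 over the 4 knockout libraries.

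Levels are compared between genes only per length, as CPM per kilobase. Over the 4 PCGF6-KO libraries the highest mean levels were those of HOXB9 (12.0 ± 2.75 SD), HOXB1 (8.61 ± 2.92 SD), HOXB2 (8.18 ± 0.651 SD), HOXC6 (6.17 ± 2.40 SD) and HOXC10 (5.34 ± 3.55 SD). HOXC8 (5.24) and HOXB8 (5.08) followed, and the lowest was HOXC13 at 0.0178. These SDs include the difference between the clones, and within a clone the SDs over 2 libraries were narrower, as for HOXB2 (8.64 ± 0.308) and HOXC6 (4.10 ± 0.368) in clone 1. In clone 2 HOXC10 (8.40 ± 0.304), HOXC6 (8.24 ± 0.106) and HOXB2 (7.72 ± 0.574) lay within their spread of the next. The order thus differed by clone. HOXB1 ranked 1 in clone 1 (11.02) and 6 in clone 2 (6.21), while HOXC10 ranked 9 in clone 1 (2.29) and 2 in clone 2 (8.40).

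Of the anterior genes, HOXB1, a direct target of retinoic acid that sets the identity of a single hindbrain segment, had WT counts of 8 and 3, clone 1 counts of 574 and 446, and clone 2 counts of 277 and 248. All knockout libraries lay far above WT, and both clone 2 libraries lay below both clone 1 libraries. Against WT, the fitted log2 fold change of PCGF6-KO cells came to 5.97 ± 0.51 (SE, edgeR, adjusted p = 2.99e-05). HOXB2, which acts in the same hindbrain region, had no WT count, clone 1 counts of 376 and 376 and clone 2 counts of 344 and 274, at least 105-fold higher in PCGF6-KO. HOXA2, which patterns the second branchial arch, had none there, 44 and 45 in the clone 1 libraries, and 51 and 23 in the clone 2 libraries. The clones overlapped for HOXA2, and its bound was 12.4-fold.

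Paralog group 3 acts in the neck and the pharyngeal organs. HOXA3, needed for the thymus and parathyroid, was read 111 and 135 times in clone 1 and 194 and 141 times in clone 2, with no WT count and a bound of 44.9-fold. HOXB3 had 256 and 234 counts in clone 1 and 385 and 286 in clone 2, at least 89.7-fold above WT. HOXA3 and HOXB3 share exonic sequence on the same strand with neighbouring annotated genes (HOXB4 and HOXB6 for HOXB3), so counting could have split or dropped reads. HOXD3 was low, with 14 and 10 counts in clone 1 and 12 and 9 in clone 2, and HOXD1 had 1 count per WT library, 17 and 16 counts in clone 1 and 25 and 18 in clone 2. The ratio for HOXD1 was 17.5 (95% counting interval 4.69 to 147).

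Central genes pattern the neck and trunk. In cluster A, HOXA5, which acts in the lung and the neck skeleton, had no WT count, with 54 and 85 in clone 1 against 132 and 89 in clone 2. HOXA6 had 20 and 29 in clone 1 and 42 and 36 in clone 2, and HOXA7 had 1 and 0 WT counts, 86 and 68 in clone 1 and 83 and 79 in clone 2. HOXA7 had a log2 fold change between the clones of 0.20 ± 0.21 (SE) and was not called there. HOXA4 was the exception in its cluster, with 4 and 0 counts in clone 1 and 0 and 2 in clone 2, and was not tested while its neighbours HOXA3 and HOXA5 held 581 and 360 counts in those 4 libraries. HOXA4 overlaps an unnamed annotated gene on the same strand, so counting could have dropped its reads.

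In cluster B the central genes formed an uneven series. HOXB4, a gene known for expanding blood stem cells, had 49 and 48 counts in clone 1 and 72 and 66 in clone 2, and HOXB5 had 57 and 47 against 105 and 71. HOXB6 had 158 and 136 against 249 and 214, HOXB7 51 and 52 against 97 and 91, and HOXB8, which acts in myeloid progenitors, 128 and 145 against 245 and 216. None of these 5 had a WT count. For each of them both clone 2 libraries were above both clone 1 libraries in CPM, as for 28.9% of all genes tested. HOXB6 and HOXB8 were at least 58.8-fold and 57.2-fold above WT.

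In cluster C, HOXC6, a gene of the chest region, had no WT count but 295 and 247 in clone 1 and 534 and 464 in clone 2, at least 120-fold above WT, the largest bound among members with no WT count. HOXC8, which acts in motor neurons and vertebrae of the lower chest, had 158 and 151 in clone 1 and 218 and 176 in clone 2. HOXC4 had 2 and 0 WT counts, then 142 and 113 for clone 1 and 207 and 142 for clone 2, a ratio of 139 (95% counting interval 38.4 to 1153). HOXC5 had 9 and 7 counts in clone 1 and 8 and 15 in clone 2 and was not tested. HOXC4 and HOXC6 have exons that overlap on the same strand, and HOXC5 overlaps unnamed annotated genes, so reads of this stretch cannot be given to 1 gene with certainty.

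In cluster D the central genes were low. HOXD8 had 18 and 32 counts in clone 1 and 33 and 25 in clone 2, with the clones overlapping and a bound of 8.35-fold. HOXD4 had 3 and 6 against 4 and 3 and was not tested.

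Posterior genes act in the lower trunk, limbs, gut end and urogenital tract. In cluster A, HOXA9, known from blood progenitors and leukaemia, had no WT count, against 113 and 117 in clone 1 and 215 and 180 in clone 2, at least 48.7-fold higher in PCGF6-KO. HOXA10 had 63 and 73 against 121 and 85, HOXA11 26 and 18 against 49 and 33, and HOXA13, a gene of the digits and hindgut, 62 and 83 against 131 and 122. All 4 were at 0 in WT and lay higher in CPM in both clone 2 libraries than in both of clone 1, as did 28.9% of all genes tested. HOXA9 and HOXA10 each overlap an unnamed annotated gene on the same strand.

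In cluster B, HOXB9, which acts in the rib-bearing trunk, had 0 and 1 WT counts, 467 and 465 counts in clone 1 and 695 and 577 in clone 2. Its ratio was 1017 (95% counting interval 182 to 40174), the width of which reflects the single WT count. HOXB13, best known from the prostate, had 1 and 0 WT counts, 43 and 28 in clone 1 and 69 and 56 in clone 2, with a ratio of 90.4 (95% counting interval 16.0 to 3589).

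In cluster C, HOXC9, which separates limb from chest motor neurons, had 58 and 36 counts in clone 1 and 96 and 68 in clone 2. HOXC10, of the group that suppresses ribs in the lumbar region, had 122 and 78 in clone 1 and 364 and 306 in clone 2. HOXC11 had 7 and 5 against 25 and 20. In CPM both clone 2 libraries lay above both of clone 1 for all 3, as for 28.9% of all genes tested, and none had a WT count. HOXC10 overlaps an unnamed annotated gene on the same strand and HOXC9 overlaps HOXC6, so counting could have split or dropped their reads. HOXC12, with 1 and 3 against 5 and 9, and HOXC13, a gene of hair and nails with 0 and 0 against 2 and 1, were too low to be tested.

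In cluster D, HOXD9 had 55 and 70 counts in clone 1 and 192 and 117 in clone 2, HOXD10 had 37 and 46 against 102 and 88, and HOXD11 had 13 and 15 against 47 and 29. HOXD10 and HOXD11 share exonic sequence on the same strand. HOXD13, which forms the digits, had 1 count per WT library, 40 and 37 in clone 1 and 47 and 48 in clone 2, with a ratio of 39.7 (95% counting interval 10.8 to 330). HOXD12, with 2 and 5 against 8 and 10, was not tested. HOXD9, HOXD10 and HOXD11 differed between the clones by a wider margin than HOXD13 at the end of the same cluster.

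The clones were then compared directly, which needs no WT value and in which nearly all members have counts on both sides. Of the 32 tested members, 17 were called higher in clone 2 and 1, HOXB1, was called lower. Of all genes tested, 3.73% were called higher in clone 2 and 4.14% lower, and the median log2 fold change was 0.01, against 0.78 over the members. In CPM, both clone 2 libraries lay above both clone 1 libraries for 27 of the 32 and below for 2 (HOXB1 and HOXB2), where the shares of all genes tested were 28.9% and 26.6%. HOXA2, HOXD3 and HOXD8 overlapped. Without clone 2 library 1, 9 members were called higher and 1 lower, and DESeq2 called 8 higher and 1 lower.

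The calls between the clones were spread unevenly over the positions in the clusters. Of 7 tested anterior members none was called higher in clone 2 and 1 was called lower, and the median log2 fold change was -0.07. HOXA3 (0.56) and HOXB3 (0.58) passed edgeR's adjusted p but not the size threshold. Of 12 central members 6 were called higher, with a median of 0.78. Of 13 posterior members 11 were called higher, with a median of 0.94, and the other 2 were HOXB9 and HOXD13. Without clone 2 library 1, the calls were 5 of 12 tested posterior and 4 of 12 central members, and DESeq2 called 5 of 12 and 3 of 12. Paralog groups 10 and 11 had all 3 of their tested members called higher, but without that library, and with DESeq2, group 10 had 2 of 3 and group 11 had 0 of the 2 that could be tested. Over the 32 members, Spearman's rho between paralog number and the clone difference was 0.64, and it was 0.75 in cluster A (n = 9), 0.68 in B (n = 10), 0.71 in C (n = 6) and 0.43 in D (n = 7). These correlations are across genes that share libraries and clusters, and no test of a difference between classes was run.

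**Figure D2:**
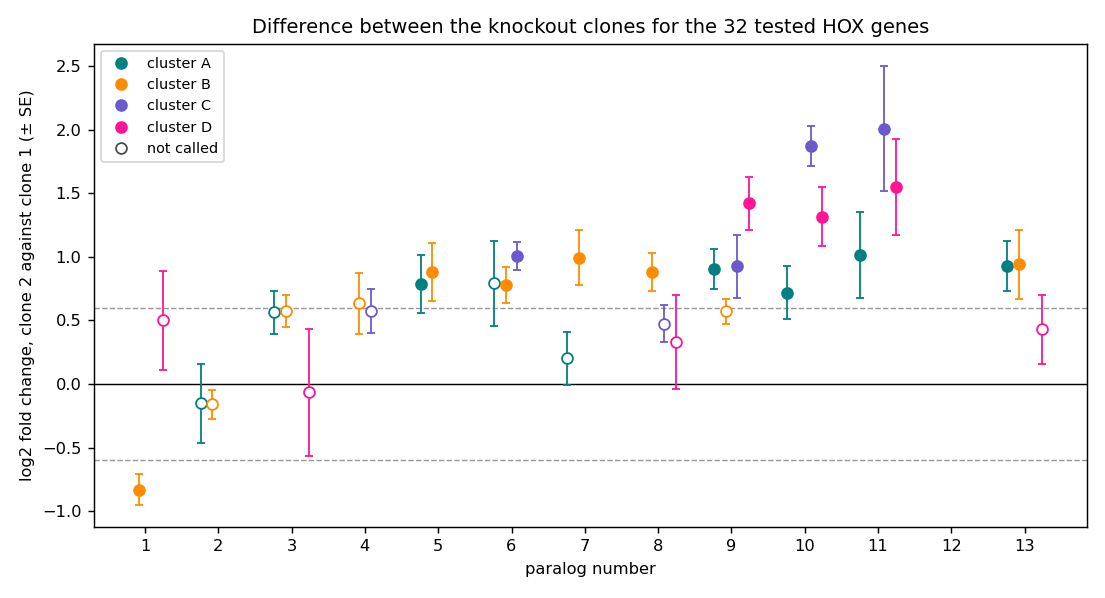
Log2 fold change of clone 2 against clone 1 on the vertical axis, with SE as bars, for the 32 tested HOX genes by paralog number, coloured by cluster. Filled points passed the test, open points did not, and dashed lines mark the size threshold of 0.6. HOXB1 lies lowest at -0.83, and HOXC11 at 2.01 and HOXC10 at 1.87 lie highest.

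The widest difference in precise terms was that of HOXC10, with a log2 fold change of 1.87 ± 0.16 (SE, edgeR, adjusted p = 3.43e-09). HOXC11 had 2.01 ± 0.49 on few counts (edgeR, adjusted p = 0.00412). It passed the filter on low counts only through clone 2, where it was high, so its call is a description, and without it 16 of 31 tested members, 10 of 12 posterior, were called higher and Spearman's rho was 0.62. HOXD11 had 1.55 ± 0.38, HOXD9 1.42 ± 0.21, HOXD10 1.32 ± 0.23 and HOXA11 1.02 ± 0.34, and each was called. HOXC6, a central gene, had 1.01 ± 0.11 (edgeR, adjusted p = 2.23e-07). HOXB1 went the other way with -0.83 ± 0.12 (edgeR, adjusted p = 1.25e-05). Of these genes, HOXC6, HOXC10, HOXD9 and HOXD10 were called between the clones in all 17 alternative fits, while HOXA11, HOXC11, HOXD11 and HOXB1 each missed the call in at least 1.

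The 10 further members called higher in clone 2 had log2 fold changes between 0.72 (HOXA10) and 0.99 (HOXB7). Among the 14 members not called, HOXB9 had 0.57 ± 0.10, HOXC4 0.57 ± 0.17 and HOXC8 0.47 ± 0.15, each at an adjusted p under 0.05 by edgeR but under the size threshold. HOXB2 had -0.16 ± 0.11, HOXA2 -0.15 ± 0.31 and HOXD3 -0.07 ± 0.50. The SE of HOXD3 is wide because the gene had only 45 counts over the 4 knockout libraries. HOXA7 (0.20 ± 0.21), HOXD8 (0.33 ± 0.37), HOXD13 (0.43 ± 0.27) and HOXD1 (0.50 ± 0.39) also were not called. HOXA6 (0.79 ± 0.33, edgeR, adjusted p = 0.0989) and HOXB4 (0.63 ± 0.24, edgeR, adjusted p = 0.0665) were past the size threshold and missed only the adjusted p.

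The clones also differed in which HOX genes made up the sum of HOX transcripts. Sums per length were taken over clusters B, C and D, with 28 genes in all, and are given without a test. Cluster B held 67.0% and 67.6% of the sum in clone 1 and 54.6% and 56.0% in clone 2. Cluster C held 25.6% and 22.6% in clone 1 and 32.7% in both libraries of clone 2, and cluster D held 7.38% and 9.79% against 12.7% and 11.3%. By class, anterior genes held 36.0% and 34.4% in clone 1 and 18.8% in both libraries of clone 2, while posterior genes held 28.8% and 29.4% against 40.4% and 39.3%. In absolute terms the anterior sum was 23.0 and 21.1 CPM per kilobase in clone 1 and 18.0 and 16.7 in clone 2, and the posterior sum was 18.4 and 18.0 against 38.7 and 34.8. The libraries of the clones did not overlap for any of these sums or shares. The anterior difference was that of HOXB1, since the other 4 anterior genes summed to 10.9 and 11.2 in clone 1 and 11.9 and 10.4 in clone 2, which overlap.

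**Figure D3:**
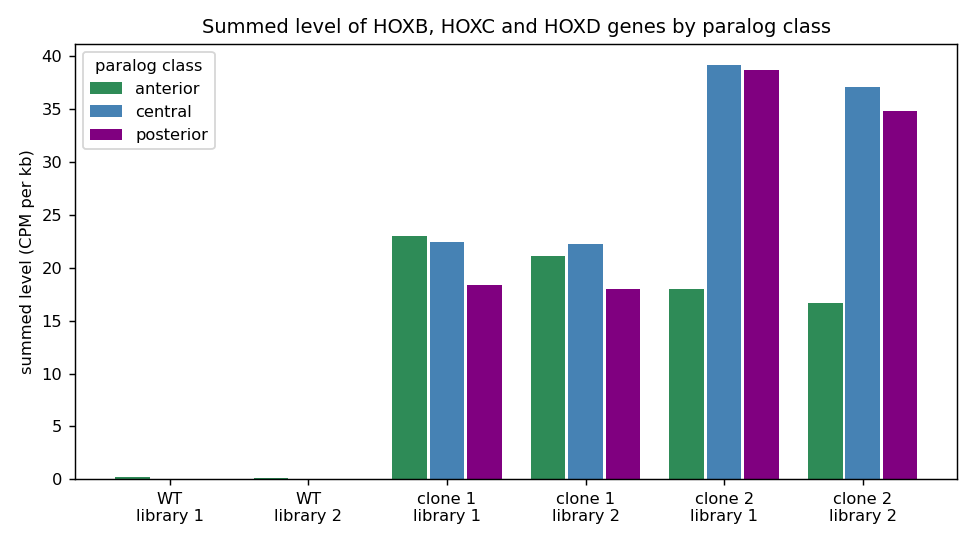
Summed level in CPM per kilobase of the HOXB, HOXC and HOXD genes in each of the 6 libraries, by anterior, central and posterior paralog class. Each bar is 1 library and 1 class. The posterior bars reach 18.4 and 18.0 in clone 1 and 38.7 and 34.8 in clone 2, and the WT bars lie near 0.

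Transcripts made inside the clusters but outside the coding genes were followed too. Of 18 listed long noncoding RNAs of the HOX clusters, 17 were at 0 in both WT libraries. The 11 that could be tested were called higher in PCGF6-KO, against 14.9% of all genes tested. All 11 could pass the filter on low counts only through the knockout libraries, so that count is a description. Between the clones 6 of the 11 were called higher in clone 2 and none lower, where 3.73% and 4.14% of all genes tested were. The median of the 11 was 0.97 on the log2 scale. HOTAIR, HOXC-AS2 and HOXD-AS2, which were called, and HOXA10-AS, which was not, passed the filter on low counts only through clone 2. They were high there, so their calls and their part in the median are a description. HOTAIR, which lies between HOXC11 and HOXC12, had 7 and 12 counts in clone 1 and 42 and 33 in clone 2. Its 2.09 ± 0.41 (SE, edgeR, adjusted p = 0.000518) is a description for the reason just given. HOTAIRM1, at the anterior end of cluster A, had 147 and 178 against 159 and 164 and was not called, with 0.12 ± 0.16. Reads of such genes and of the coding genes that overlap them on the other strand could be told apart only if counting used strand, which is not given in the sources used here.

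Genes that flank the clusters were mostly not called. Of 16 tested neighbours, 4 were higher in PCGF6-KO (SKAP2, SKAP1, PRAC1 and JAZF1) and TTLL6 was lower, and the median over all 16 was 0.16 on the log2 scale. Of all genes tested, 14.9% were called higher and 8.7% lower. SKAP1 and PRAC1 could pass the filter on low counts only through the knockout libraries. SKAP2, next to the anterior end of cluster A, rose from 117 and 114 WT counts to 541 and 547 in clone 1 and 545 and 549 in clone 2, with 2.13 ± 0.12 (SE, edgeR, adjusted p = 2.43e-06). PRAC1, between HOXB9 and HOXB13, had no WT count, 9 and 14 in clone 1 and 23 and 27 in clone 2. HNRNPA3 and MTX2, near cluster D, and CBX5, SMUG1 and CALCOCO1, near cluster C, were not called. Of these, CBX5 (-0.47), CALCOCO1 (0.41) and HNRNPA3 (-0.30) passed edgeR's adjusted p against WT but not the size threshold. The same was true of TAX1BP1 (0.37) and ATP5MC2 (-0.37) in the list.

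Of the TALE-class partners that bind DNA with HOX proteins, 8 are reported here. MEIS1, MEIS2, MEIS3 and PKNOX2 were called higher in PCGF6-KO among these, with a log2 fold change of 2.47 ± 0.09 for MEIS3 (SE, edgeR, adjusted p = 3.04e-07). Over all genes tested, 14.9% were called higher. MEIS1 and MEIS2 could pass the filter on low counts only through the knockout libraries. MEIS1 had 2 counts per WT library, 72 and 97 in clone 1 and 154 and 151 in clone 2, and was the only partner of the 8 called between the clones (0.98 ± 0.18). MEIS2 (0.56 ± 0.14) and PKNOX2 (0.55 ± 0.15) passed edgeR's adjusted p between the clones but were just under the size threshold. PBX2, PBX3, PBX4 and PKNOX1 were not called in either comparison. Against WT, PKNOX1 (-0.43 ± 0.08) and PBX2 (-0.22 ± 0.05) passed edgeR's adjusted p but not the size threshold. In WT cells PBX2 (158 CPM), PBX3 (37.2 CPM), PKNOX1 (34.4 CPM) and MEIS3 (16.4 CPM) were read at the mean levels given, while MEIS1 and MEIS2 were close to 0 there, MEIS2 with 0 and 3 counts.

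Of 15 listed signals and regulators known to act on HOX clusters, 10 were called higher in PCGF6-KO and none lower. The shares of all genes tested were 14.9% and 8.7%. Those 10 included CDX1, CDX2 and CDX4, the caudal factors that switch on central and posterior HOX genes, and WNT3A, WNT8A, FGF8 and FGF17, signals of the tail bud. RARB, CYP26A1 and ALDH1A2 of the retinoic acid pathway were the rest, while RARA, RARG, GDF11 and the activators KMT2A and MEN1 were not called. RARG (-0.53), GDF11 (-0.43) and MEN1 (-0.19) were lower by edgeR's adjusted p but under the size threshold. In clone 2 alone against WT, RARG was called lower (-0.75 ± 0.08). CDX1, CDX2, WNT3A, WNT8A, FGF17, RARB and ALDH1A2 could pass the filter on low counts only through the knockout libraries. CDX2 had 1 count per WT library, 762 and 660 in clone 1 and 1481 and 1169 in clone 2. In clone 2 against clone 1, CDX2 (1.02 ± 0.09), CDX1 (1.03 ± 0.14), RARB (1.21 ± 0.35), ALDH1A2 (0.97 ± 0.19) and WNT8A (0.77 ± 0.11) were called higher, as were 3.73% of all genes tested. WNT3A (0.12 ± 0.16), CDX4 (0.27 ± 0.19) and CYP26A1 (-0.46 ± 0.16) were not called. Of these, CYP26A1 passed edgeR's adjusted p (0.0405) but not the size threshold.

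Homeobox genes of the ANTP class outside the clusters gave 4 tested genes of 12 listed. EVX1, GBX2, MNX1 and MEOX1 were all called higher in PCGF6-KO, against 14.9% of all genes tested. These 4 could pass the filter on low counts only through the knockout libraries, so their count is a description. EVX1, which lies beside HOXA13, had no WT count but 714 and 642 in clone 1 and 1063 and 890 in clone 2, and was called higher in clone 2 (0.65 ± 0.09). GBX2 had 567 and 509 counts in clone 1 and 377 and 336 in clone 2. Between the clones GBX2 (-0.47 ± 0.10, edgeR, adjusted p = 0.00172) was under the size threshold and so was not called. EVX2, beside HOXD13, had 2 and 6 counts against 2 and 2 and was not tested.

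Markers of other cell types were read as well, and the lists did not all go the same way. All 9 tested markers of the primitive streak and mesoderm were called higher in PCGF6-KO, and their list summed to 9.47 to 9.89 CPM in WT, 695 to 708 in clone 1 and 940 to 943 in clone 2. TBXT had 0 and 12 counts in WT, HAND1, MSGN1 and TWIST1 had none, and 7 of the 9 were called higher in clone 2 than in clone 1. EOMES had -0.53 ± 0.07 between the clones (edgeR, adjusted p = 5.00e-06) and was not called because it was under the size threshold. Endoderm markers were higher in PCGF6-KO for 5 of 6 and higher in clone 2 for 3, with sums of 12.8 to 13.4 CPM in WT, 124 to 134 in clone 1 and 167 to 174 in clone 2. Of 8 fibroblast markers 7 were higher and 1 lower in PCGF6-KO, of 5 tested neural markers 1 was higher and 1 lower, and of 4 tested blood and endothelium markers 2 were higher and 1 lower. SOX17, FOXA2, GATA6, COL3A1, DCN and LUM likewise could pass the filter only through the knockout libraries. Pluripotency markers summed to 8608 to 8981 CPM in WT, 6667 to 6771 in clone 1 and 6071 to 6239 in clone 2, and without DNMT3B, the most abundant of them in WT, the mean sums were 5774, 5138 and 5002 CPM. SOX2 and PRDM14 were called lower in clone 2 than in clone 1. The part of these cell states in the HOX levels was not tested.

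**Figure D4:**
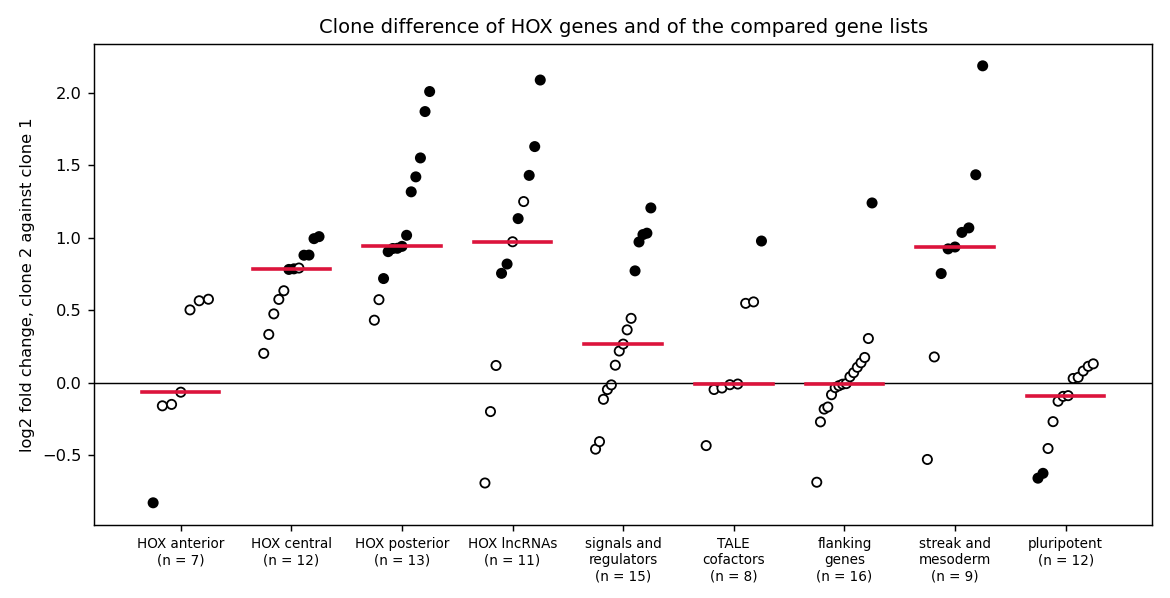
Log2 fold change of clone 2 against clone 1 for the tested HOX genes by class and for the compared lists, with each point 1 gene, filled where the test was passed, and a red bar at the median. The median is -0.07 for anterior, 0.78 for central and 0.94 for posterior HOX genes, and 0.94 for streak and mesoderm markers.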

How the data were processed

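RNA from the 6 PGP1 libraries was sequenced and, per the labels, trimmed with Trim Galore 0.6.2, aligned to GRCh38 with HISAT2 2.1.0 and counted per gene with featureCounts by the authors. The deposited table holds raw counts of reads per gene and a gene length. The annotation release, strand setting and treatment of shared reads are not given in the sources used here. No column of per-sample values was left unused. ChIP-seq samples were not analysed here.

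Counts were tested with edgeR 4.0.16 in R 4.3.3 (TMM, filterByExpr, glmQLFit, glmQLFTest, Benjamini-Hochberg over all 17672 genes), with both knockout clones as 1 group, and with WT, clone 1 and clone 2 as 3 groups. The calling thresholds (adjusted p 0.05, absolute log2 fold change 0.6) are those of the study's methods. Levels were CPM per kilobase of the deposited length. A count of 0 was given an upper limit of 3 counts. Exon overlaps were read from GENCODE release 44. On simulated counts, 77.5% of 200 genes changed 2-fold were called for PCGF6-KO against WT and 78.0% for clone 2 against clone 1. The simulation gave all genes the same dispersion and no difference between groups beyond the set change. Its rates therefore need not hold for these data. The chi-square per degree of freedom between libraries of a group was 2.40 to 4.50, so none were duplicates.

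The members and lists were chosen with earlier results of these data known. All members could be named, with values in every library for the highest 5 per cluster, for those not called or not tested and for those that differed between the clones by over 1 on the log2 scale, and listed genes where they were called. Some genes named as not called fall outside that rule and were added after their values were seen. A further row that fits the symbol pattern and a gene of the list of TALE-class partners are not reported here, and sums by cluster and class were therefore taken over clusters B, C and D in place of all clusters. Alternatives were other normalisations, filters, thresholds and tools, a replicate block and each library left out.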

Additional observations from a re-analysis of the deposited data

Results flagged for a closer look

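Of the 32 tested members, 18 differed between the knockout clones by edgeR's quasi-likelihood test of the difference itself. Of all genes tested 7.87% did, and the count of members was 9 with DESeq2 and 10 without clone 2 library 1. Higher in clone 2, by log2 fold change, were in cluster A HOXA5 (0.78), HOXA9 (0.90), HOXA10 (0.72), HOXA11 (1.02) and HOXA13 (0.93). In cluster B they were HOXB5 (0.88), HOXB6 (0.78), HOXB7 (0.99), HOXB8 (0.88) and HOXB13 (0.94). In cluster C they were HOXC6 (1.01), HOXC9 (0.93), HOXC10 (1.87) and HOXC11 (2.01), and in cluster D HOXD9 (1.42), HOXD10 (1.32) and HOXD11 (1.55). HOXB1 was lower (-0.83).

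Among the 4 PCGF6-KO libraries, HOXC5 had a highest value of 0.935 CPM, in clone 2 library 2, that stood apart from the other 3 by Dixon's test at the 95% level. It rests on 15 counts, and chance flags about 1 in 20 such groups.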

How the results depend on the processing

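All 32 tested HOX genes kept their direction and their call in PCGF6-KO against WT with RLE or upper-quartile normalisation, a minimum of 10 counts in 2 libraries, a test against a 1.5-fold change, a prior count of 2 and the mean of the clones. Leaving out 1 library gave 30 to 32 calls, 30 to 33 for clone 1 against WT and 30 to 34 for clone 2 against WT, and HOXC11 lost its call without either WT library. Restricting to genes with no exon overlap left 11 tested members in each, and all 11 were called. The clone 2 against clone 1 count of 18 moved more. It was 4 with a test against a 1.5-fold change (4 higher and 0 lower), 9 with DESeq2 (8 higher), and 7 of 11 without exon overlap (6 higher). Calls over all genes tested also fell, from 7.87% to 2.28% with the 1.5-fold test and 4.99% with DESeq2. Leaving out 1 library gave 10 to 21 (9 to 20 higher, 1 lower in each), the 10 without clone 2 library 1. In DESeq2 and without that library, HOXA5, HOXA10, HOXA11, HOXB5, HOXB13, HOXC9 and HOXD11 lost the call, HOXC11 had no adjusted p, and HOXB7 lost it in DESeq2 alone. Over the libraries left out, the log2 difference between the clones turned sign for HOXD8 (-0.051 to 0.84), HOXD3 (-0.26 to 0.042) and HOXA2 (-0.73 to 0.24), none of which was called. The cause was not tested.

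Same-numbered libraries deviated together with r of 0.07, 0.07 and 0.18 across 13420 genes for the 3 pairs of groups, so the numbers were not taken as pairs. With the replicate number as a block, 32 members were called in PCGF6-KO, clone 1 and clone 2 against WT and 18 in clone 2 against clone 1.

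Shares of the B to D sum moved with the scale. Not divided by length, cluster B held 68.9% in clone 1 and 57.2% in clone 2, cluster C 32.8% and cluster D 10.0% in clone 2. With genes without exon overlap only, cluster B held 77.9% and 70.8%, cluster C 13.2% and 14.7%, and cluster D 14.5% in clone 2. The higher share of cluster B in clone 1 held under both. Depth limits genes under about 10 counts per library, of which 6 were not tested.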
